A study of Mus musculus with 15 samples.

Results

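A set of 10 genes of the blood vessel wall was followed in the mouse auditory nerve after loud noise: the leukocyte adhesion genes Icam1, Vcam1, Sele and Selp, the junction genes Pecam1, Cdh5, Cldn5 and Ocln, and the endothelial identity genes Kdr and Vwf. They were taken by symbol, as all probe sets that the platform annotation pairs with 1 of these 10 names, which gave 16 of the 34945 single-gene probe sets and 10 of 18193 genes. The brightest set of 9 of the 10 genes was above the lowest 25% of genes and was tested among 13644 genes, and 12 of the 16 sets were tested as sets. The groups were unexposed CBA/CaJ controls and CBA/CaJ mice killed immediately, 1 day, 7 days or 14 days after 2 h of octave-band noise (8 to 16 kHz, 106 dB SPL), with 3 arrays and 3 animals each. The exposed mice were 5 to 12 weeks old, the controls are labelled adult, and each array held RNA from both ears of 1 animal. All 3 controls were female, all 3 one-day animals were male, and the other 3 groups had 2 females and 1 male each.

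The tissue was the dissected modiolus, the bony core of the cochlea that holds the nerve, so vessels, bone and marrow cells can be sampled with it. Its defining genes were bright: the mean log2 intensity of the Schwann cell genes Mag, Sox10 and Pmp22 lay between 10.52 and 10.96 over the 15 arrays, and that of 5 neuronal genes, among them Tubb3 and Nefl, between 10.75 and 10.87. In such bulk tissue, fewer endothelial cells and less RNA per cell cannot be told apart. Levels are given as log2 intensities and differences on the same log2 scale, with the standard error (SE) of the fit, and a change was called at an adjusted p under 0.05 (limma, Benjamini-Hochberg over all 13644 genes).

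Leukocytes leave the blood in steps. The selectins encoded by Sele and Selp slow rolling leukocytes, the immunoglobulin-type molecules encoded by Icam1 and Vcam1 hold them through integrins, and the junction proteins part to let them through. Icam1, Vcam1 and Sele are textbook targets of the inflammatory factor NF-kB in endothelium, whereas P-selectin, the product of Selp, is also stored ready-made with von Willebrand factor in Weibel-Palade bodies. In the cochlea, endothelial tight junctions, of which claudin-5 and occludin are components, form part of the blood-labyrinth barrier.

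The upstream sequences of the 3 adhesion genes with an entry in the RefSeq promoter table (assembly GRCm38.p6) are shown as the sequence context of these genes. No value in these data bears on the use of the sites. Each line gives the 250 bases before the annotated start, and capitals mark matches to the short NF-kB-like spelling GGNNNTTCC on either strand, a spelling chosen after these sequences were seen.
Icam1 (chr9:21015690-21015939, plus strand): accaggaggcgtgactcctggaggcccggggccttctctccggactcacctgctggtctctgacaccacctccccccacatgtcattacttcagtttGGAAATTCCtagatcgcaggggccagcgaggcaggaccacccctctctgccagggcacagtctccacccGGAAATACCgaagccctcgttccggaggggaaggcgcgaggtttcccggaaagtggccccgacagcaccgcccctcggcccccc
Sele (chr1:164047984-164048233, plus strand): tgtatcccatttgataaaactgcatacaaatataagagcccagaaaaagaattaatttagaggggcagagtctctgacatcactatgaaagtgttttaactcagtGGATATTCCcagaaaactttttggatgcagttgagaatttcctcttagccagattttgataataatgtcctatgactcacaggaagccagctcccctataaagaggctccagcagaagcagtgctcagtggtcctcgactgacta
Selp (chr1:164115014-164115263, plus strand): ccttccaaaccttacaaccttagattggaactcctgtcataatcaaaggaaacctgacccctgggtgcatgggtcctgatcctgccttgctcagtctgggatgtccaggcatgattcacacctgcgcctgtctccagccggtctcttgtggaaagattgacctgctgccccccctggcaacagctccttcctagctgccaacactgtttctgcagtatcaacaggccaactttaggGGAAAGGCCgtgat
Icam1 held 2 matches, 153 and 84 bases before the start, Sele held 1 at 145 bases and Selp held 1 at 14 bases. Of 32841 table entries, 15.7% held a match in the same window, and none was found in the entries of Cldn5, Ocln or Kdr. A match describes the letters only. No entry for Vcam1, Pecam1, Cdh5 or Vwf was among those searched.

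None of the 9 tested members was called against control at any time after noise. The lowest change was -0.35 (Vwf, immediately) and the highest was 0.47 (Icam1 at 1 day), and 35 of the 36 unadjusted 95% intervals lay within 1 log2 unit either side of 0. At an unadjusted p under 0.05 there were 3 of 36, for Vcam1 immediately, Cldn5 at 7 days and Ocln at 14 days. Of all genes, 0.931% were called immediately, 3.18% at 1 day, 0.0220% at 7 days and 0% at 14 days, so at 7 and 14 days hardly any gene on the array was called. Between consecutive times 8.39% of genes were called from immediately to 1 day, 9.35% from 1 to 7 days and 0% from 7 to 14 days, and again 0 of 9 members in each (limma). Including these steps, 5 of 63 unadjusted p values were under 0.05. The moderated F test over the 5 groups called 6.75% of genes and 0 of 9 members, with the smallest adjusted p at 0.128 for Vwf.

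**Figure D1:**
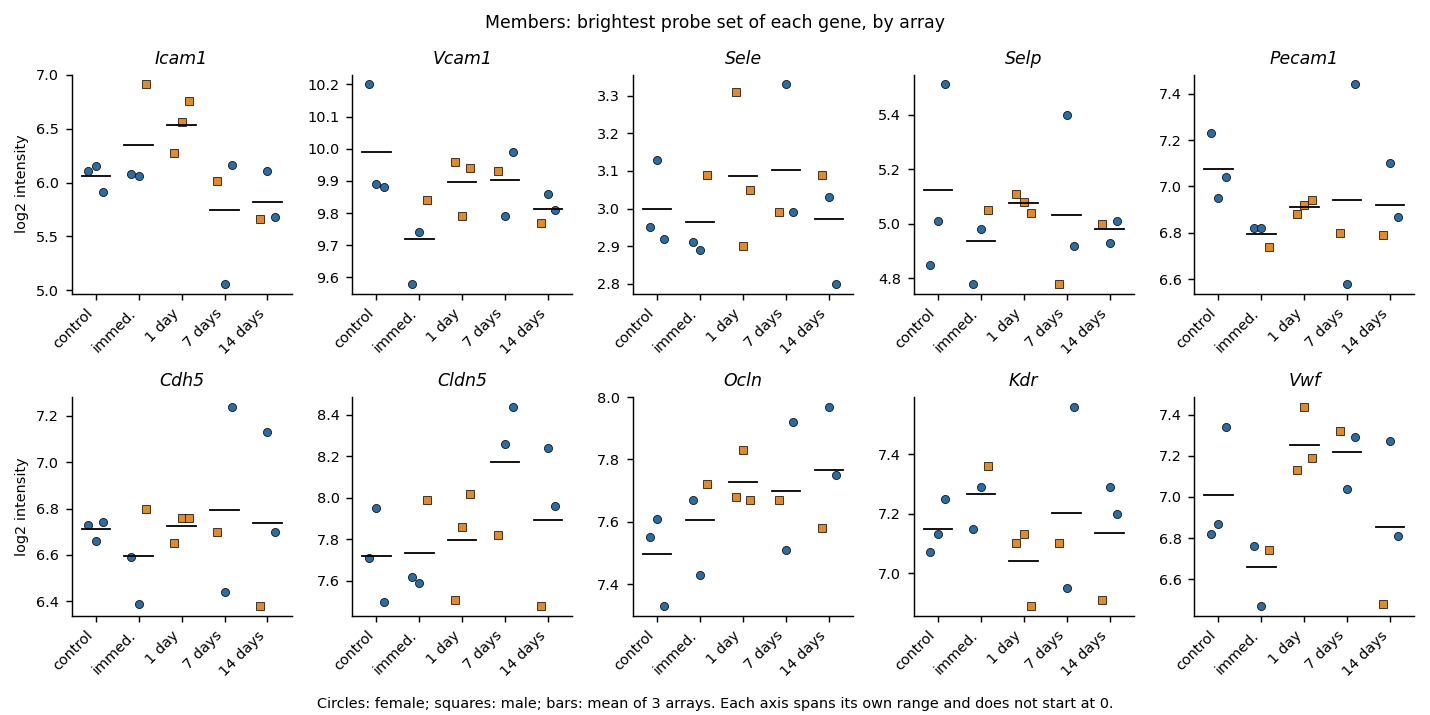
Log2 intensity (vertical axes) of the brightest probe set of each of the 10 genes in the 5 groups (horizontal axes). Each point is 1 array, circles are females, squares are males and bars are means of 3 arrays. Icam1 is highest on an immediate array at 6.91 and lowest on a 7-day array at 5.06, and Sele stays between 2.80 and 3.33.

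The members whose groups did not overlap were counted beside the same share over all genes, and 9 members are too few to read an excess from. Immediately after noise 3 of 9 members had all noise arrays below all controls, namely Vcam1, Pecam1 and Vwf, where 21.2% of all genes separated in either direction. At 1 day Icam1 and Ocln lay above and Pecam1 below the controls, 3 of 9 against 22.6%. At 7 days 0 of 9 separated against 12.8%, and at 14 days 1 of 9, Vcam1, against 14.2%. From immediately to 1 day 3 of 9 separated (Pecam1, Vwf and Kdr) against 29.4%, from 1 to 7 days 1 of 9 (Icam1) against 23.8%, and from 7 to 14 days 0 of 9 against 4.48%. The median change of the members was -0.12, 0.01, 0.05 and -0.14 at the 4 times against control, beside -0.02, -0.01, 0.01 and 0.02 for all genes tested.

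Among the adhesion genes, Icam1, the endothelial ligand of leukocyte beta-2 integrins, varied most. It read 6.11, 6.15 and 5.91 in controls, 6.08, 6.06 and 6.91 immediately, and 6.27, 6.56 and 6.76 at 1 day. Later it read 6.01, 5.06 and 6.16 at 7 days and 5.66, 6.11 and 5.68 at 14 days. The 1-day arrays thus lay above every control and every 7-day array, and by mean level the order was 1 day, immediate, control, 14 days, 7 days. The difference at 1 day was 0.47 ± 0.27 (SE, interval -0.09 to 1.04, adjusted p = 0.378, limma). It was not called, and its interval includes 0. From 1 to 7 days Icam1 differed by -0.79 ± 0.27 (interval -1.35 to -0.22; adjusted p = 0.0759, limma), the largest difference of any member between any groups compared.

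The 1-day difference of Icam1 stayed between 0.36 and 0.60 with each array left out, but other differences rested on a single array. Without immediate replicate 3, at 6.91, the immediate difference went from 0.29 to 0.01. Without 7-day replicate 2, at 5.06, the step from 1 to 7 days went from -0.79 to -0.45 (adjusted p = 0.272), and without 7-day replicate 3 it was larger in size and passed (adjusted p = 0.0390, limma). The array at 6.91 and all 3 of the 1-day arrays were male while the controls were female. Of the other males, the one at 7 days, at 6.01, lay between the females at 5.06 and 6.16. At 14 days the male, at 5.66, was the lowest of its group. With sex as a term in the fit the 1-day difference was 0.14 (adjusted p = 0.895) and the step from 1 to 7 days -0.56 (adjusted p = 0.311), so sex and time cannot be told apart at 1 day from these 2 groups alone. Male minus female, fitted beside the group means, was 0.33 ± 0.22 (SE) for Icam1, with an adjusted p of 0.989 (limma), the same adjusted p as for the other 8 members. Only the groups with both sexes inform this estimate, and the differences with sex as a term rest on it. Each of those groups has 1 male, among them the immediate array at 6.91.

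Vcam1, which binds the integrin of monocytes and lymphocytes, was read by 3 probe sets. On its brightest set, 1448162_at, controls read 10.20, 9.89 and 9.88, and immediate arrays 9.58, 9.74 and 9.84. All 3 immediate arrays were below the lowest control, by a margin of a few hundredths for the nearest pair. The difference was -0.27 ± 0.09 (interval -0.46 to -0.08; adjusted p = 0.162, limma), and -0.16 without control replicate 1, the array at 10.20. At 1, 7 and 14 days the differences were -0.09, -0.09 and -0.18, each with an SE of 0.09.

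The other Vcam1 sets gave -0.15 ± 0.09 (1415989_at) and -0.14 ± 0.11 (1451314_a_at) immediately, where their arrays overlapped the controls. At 1 day the sets disagreed in sign, at -0.09, 0.01 and 0.25 for 1448162_at, 1415989_at and 1451314_a_at. On 1451314_a_at, whose suffix marks a set that can detect several transcripts of a gene, immediate arrays read 8.33, 8.35 and 8.40 and 1-day arrays 8.77, 8.51 and 8.99. Every 1-day array was above every immediate array there, and the rise of 0.40 ± 0.11 (interval 0.16 to 0.63) was called in the fit over all 26207 sets (adjusted p = 0.0416, limma). The 2 other sets differed by 0.18 ± 0.09 and 0.16 ± 0.09 in that step and did not pass, and whether the 3 sets differ from each other was not tested. The call was lost with sex as a term (adjusted p = 0.0877) and without any one of 7 of the 15 arrays (control replicate 2, immediate replicate 1, 2 or 3, 1-day replicate 1 or 3, or 14-day replicate 1), where the rise was between 0.28 and 0.42 and the adjusted p reached 0.163.

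This was the single call among the 12 tested sets. The step from immediately to 1 day called 7.60% of all tested sets, so 1 of 12 is close to that background. In the other 6 comparisons 0 of 12 member sets were called (limma), where the shares of all sets were 1.10% immediately, 2.46% at 1 day, 0.0687% at 7 days and 0% at 14 days against control, 8.50% from 1 to 7 days and 0% from 7 to 14 days.

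**Figure D2:**
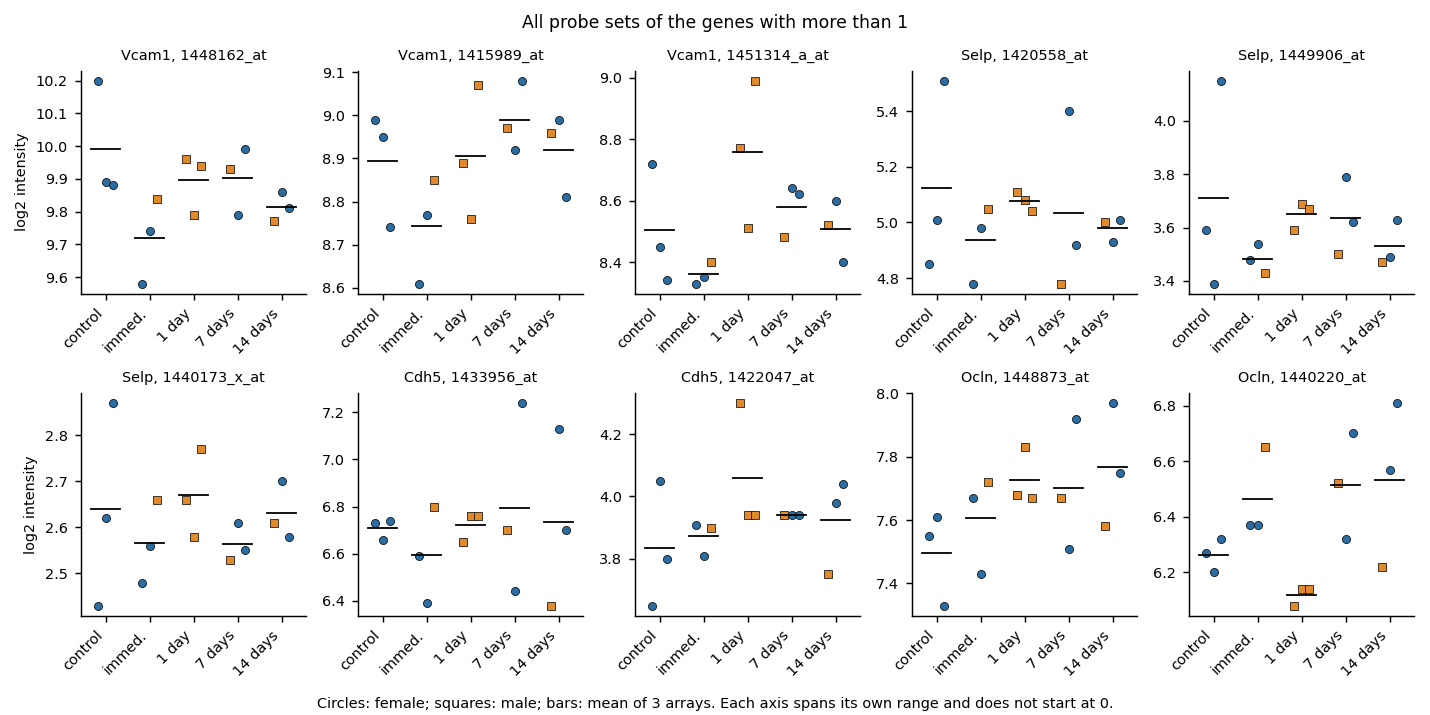
Log2 intensity (vertical axes) of all 10 probe sets of Vcam1, Selp, Cdh5 and Ocln in the 5 groups (horizontal axes). Points are arrays (circles female, squares male) and bars are means of 3 arrays. The 3 Vcam1 sets differ in where the 1-day arrays lie, the 2 Ocln sets lie on opposite sides of the controls at 1 day, and control replicate 3 is the highest array on all 3 Selp sets.

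The selectins were dim. Sele, encoding the selectin that activated endothelium makes anew, had a single set that read between 2.80 and 3.33 on all 15 arrays, above only 5.53% of sets by mean. Its group means were 3.00 in controls, 2.96 immediately, 3.09 at 1 day, 3.10 at 7 days and 2.97 at 14 days, and it fell below the filter and was not tested. For scale, sets of the Y-linked genes Kdm5d, Uty and Eif2s3y read between 2.56 and 4.33 in the 9 females, which lack these genes, although background differs between sets. Sele lay within that range, so a low level and none could not be told apart here.

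Selp was read by 3 sets, of which 1420558_at was tested and 1449906_at and 1440173_x_at lay below the filter at means of 3.60 and 2.61. On 1420558_at controls read 4.85, 5.01 and 5.51, and the noise arrays lay between 4.78 and 5.40. Control replicate 3 was the highest of the 15 arrays on all 3 sets, at 5.51, 4.15 and 2.87. Differences from control on the tested set ran from -0.19 ± 0.17 immediately to -0.05 ± 0.17 at 1 day, and without that array they were 0.01, 0.15, 0.10 and 0.05 at the 4 times. None passed with or without it.

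Control replicate 3 also stood apart in blood and marrow genes, which bears on the members shared with platelets. Ppbp, a platelet chemokine gene, read 8.68 there and 2.71 to 4.11 on the other 14 arrays, and Pf4 read 9.21 against 6.61 to 8.27. The mean of 7 platelet and megakaryocyte genes was 5.26, 5.32 and 6.74 in the 3 controls, 5.21 to 5.44 immediately, 5.47 to 5.54 at 1 day, 5.39 to 5.49 at 7 days and 5.29 to 5.33 at 14 days, with Ppbp and Gp6 below the filter level on average. Control replicate 3 was the highest array for 5 of these 7 genes and for all 5 neutrophil genes measured. The neutrophil mean spread widely within groups, from 5.89 to 9.05 in controls, 6.25 to 8.53 immediately, 6.28 to 6.99 at 1 day, 5.95 to 7.19 at 7 days and 5.28 to 5.72 at 14 days, and 0 of its 5 genes were called in any comparison (limma). How far platelet or marrow RNA enters the Selp and Vwf values was not tested.

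**Figure D3:**
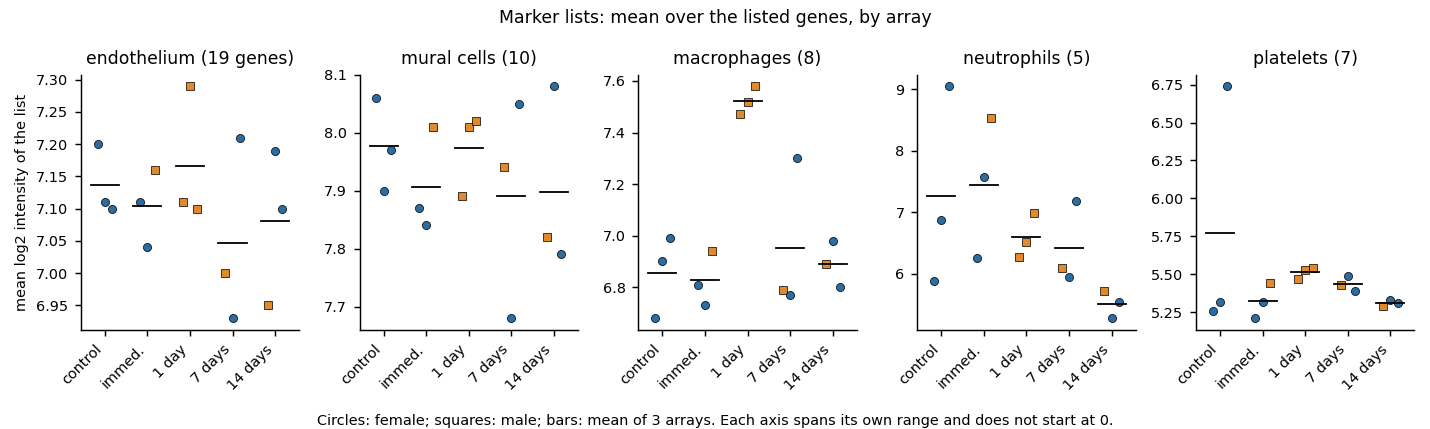
Mean log2 intensity (vertical axes) of 5 marker lists by array in the 5 groups (horizontal axes), with circles for females, squares for males and bars for means of 3 arrays. Macrophage genes are higher on the 3 arrays of the 1-day group (7.47 to 7.58) than on all other arrays, and the platelet mean of 1 control array, at 6.74, is apart from the rest.

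Vwf, the gene of the clotting protein that endothelium and megakaryocytes make, showed the larger step of the 2 identity genes. It read 6.82, 6.87 and 7.34 in controls, 6.76, 6.47 and 6.74 immediately, 7.13, 7.44 and 7.19 at 1 day, 7.32, 7.04 and 7.29 at 7 days and 6.48, 7.27 and 6.81 at 14 days. The immediate arrays lay below every control and every 1-day array, while the 1-day and 7-day arrays overlapped the highest control, which was control replicate 3. Against control Vwf differed by -0.35 ± 0.18 immediately (adjusted p = 0.364) and 0.24 ± 0.18 at 1 day (adjusted p = 0.522). Without control replicate 3 these were -0.19 and 0.41, and neither passed (limma).

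From immediately to 1 day Vwf differed by 0.60 ± 0.18 (interval 0.21 to 0.98), with an adjusted p of 0.0530 that just missed the threshold (limma). It passed with the lowest 50% of genes left out (0.0456), with array weights (0.0387), in a fit to those 2 groups (0.0141) and after quantile normalization (0.0352). With each array left out it passed in 3 of 15 fits, without control replicate 3 (0.0419), 14-day replicate 1 (0.0352) or 14-day replicate 2 (0.0275), none of which is an array of the 2 groups compared. It did not pass without any one of the 6 arrays compared, where the difference was 0.50 to 0.66 and the adjusted p 0.0732 to 0.176. It did not pass with sex as a term either (0.66, adjusted p = 0.0853), and the 1-day animals were all male.

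Kdr, the main receptor of vascular endothelial growth factor on endothelium, stayed within 6.89 to 7.56 on all arrays. Its differences from control were between -0.11 and 0.12, each with an SE of 0.14, and the intervals spanned -0.41 to 0.41. The 1-day arrays (7.10, 7.13 and 6.89) lay below the immediate ones (7.15, 7.29 and 7.36), a difference of -0.23 ± 0.14 that did not pass (adjusted p = 0.346, limma).

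Of the junction genes, Pecam1, which takes part in leukocyte passage between endothelial cells, had means below control at all 4 times, none of them called. Controls read 7.23, 6.95 and 7.04, immediate arrays 6.82, 6.82 and 6.74, and 1-day arrays 6.88, 6.92 and 6.94. Both noise groups lay wholly below the controls, though the 1-day group by only a hundredth. The differences were -0.28 ± 0.16 (adjusted p = 0.437) and -0.16 ± 0.16 (adjusted p = 0.666), and at 7 days, where the arrays spread from 6.58 to 7.44, and 14 days they were -0.13 and -0.15 (limma, none called). With sex as a term the 1-day difference was 0.00 (adjusted p = 0.998), and without 7-day replicate 2 the 7-day difference was 0.05.

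Cdh5, encoding VE-cadherin of endothelial adherens junctions, was close to control throughout. On 1433956_at its group means were 6.71 ± 0.04 (SD, n = 3) in controls, 6.59 ± 0.21 immediately, 6.72 ± 0.06 at 1 day, 6.79 ± 0.41 at 7 days and 6.74 ± 0.38 at 14 days. The later means hide wide spreads, from 6.44 to 7.24 at 7 days and from 6.38 to 7.13 at 14 days. Differences from control lay between -0.12 and 0.08, with intervals from -0.52 to 0.49. The second set, 1422047_at, had a mean of 3.93 and was below the filter.

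Cldn5, encoding claudin-5, the principal claudin of barrier endothelium, was highest at 7 days. It read 7.71, 7.95 and 7.50 in controls and 7.82, 8.26 and 8.44 at 7 days, so that the lowest 7-day array lay below the highest control. The difference was 0.45 ± 0.20 (interval 0.02 to 0.88), with an unadjusted p of 0.0397 and an adjusted p of 0.427 (limma). Over the female arrays only, 3 controls and 2 at 7 days (8.26 and 8.44), it was 0.63 (adjusted p = 0.124, limma). That fit was added once values were known and is given here for Cldn5 only. At the other times Cldn5 differed from control by 0.01, 0.08 and 0.17.

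Ocln, encoding the tight junction protein occludin, which epithelia also make, was read by 2 tested sets that parted at 1 day. On 1448873_at controls read 7.55, 7.61 and 7.33 and 1-day arrays 7.68, 7.83 and 7.67, all above the controls (0.23 ± 0.12, adjusted p = 0.348). On 1440220_at controls read 6.27, 6.20 and 6.32 and 1-day arrays 6.08, 6.14 and 6.14, all below the controls (-0.14 ± 0.13, adjusted p = 0.660). Neither passed (limma), and the mean over both sets differed from control by 0.04 at 1 day. From 1 to 7 days 1440220_at differed by 0.39 ± 0.13 (interval 0.11 to 0.68; adjusted p = 0.0814, limma), with all 7-day arrays above all 1-day arrays, while 1448873_at overlapped between these times. At 14 days both sets stood at 0.27 above control, with SEs of 0.12 and 0.13 and adjusted p values of 0.624 and 0.565, and arrays of both sets overlapped the controls. The 6 epithelial marker genes, including Epcam and Cdh1, had means of 7.46, 7.96 and 7.97 on the control arrays. Their means were 7.88 to 8.11 immediately, 7.91 to 8.25 at 1 day, 7.63 to 7.96 at 7 days and 7.82 to 8.08 at 14 days. Against control 0 of the 6 were called at any time, where at most 3.18% of all genes were called (limma). From 1 to 7 days 1 of the 6, Cdh1, was called as falling, beside 9.35% of all genes.

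**Figure D4:**
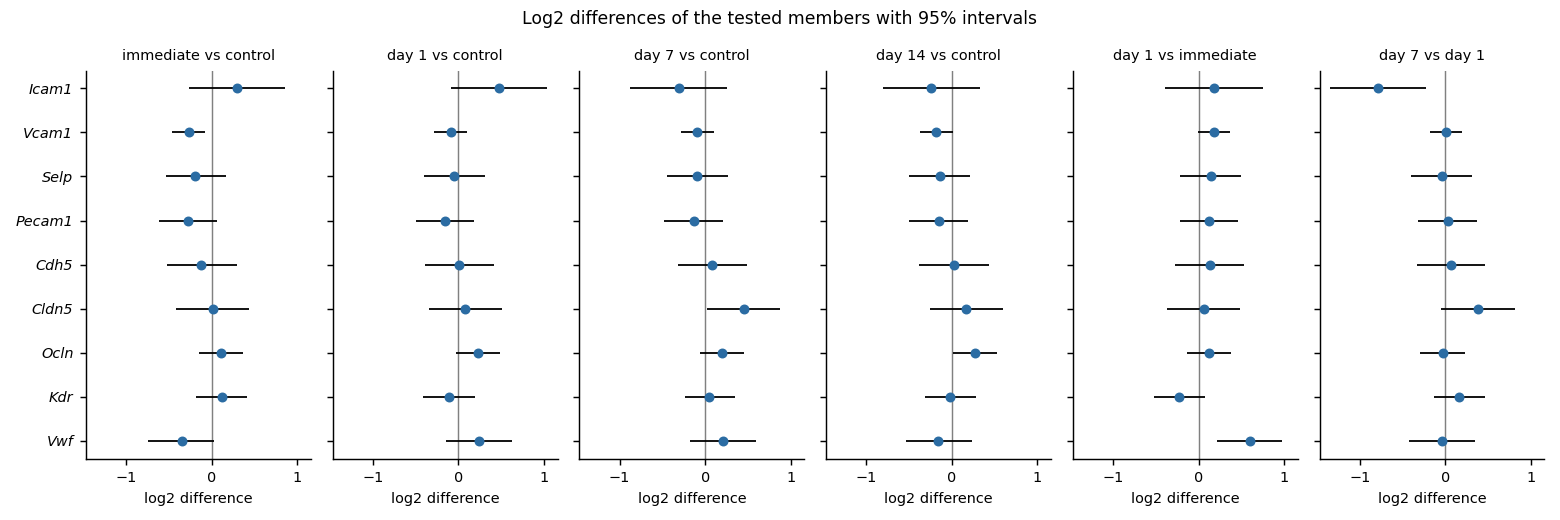
Log2 differences (horizontal axes, first group minus second) of the 9 tested members with unadjusted 95% intervals as lines, for 4 comparisons with control and 2 between consecutive times. The points against control lie between -0.35 and 0.47, and the 2 largest are the steps of Vwf (0.60) and Icam1 (-0.79).

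Arrays of one group differed more in these genes than in most. The within-group SD was 0.38 for Icam1, 0.29 for Cldn5, 0.27 for Cdh5, 0.25 for Vwf, 0.22 for Pecam1 and Selp, 0.19 for Kdr, 0.16 for Ocln and 0.12 for Vcam1, against a median of 0.12 over all genes tested. That of Icam1 was above 98.0% of genes and that of Cldn5 above 95.7%. On some arrays most members lay on one side of their group mean. On immediate replicate 3, 1-day replicate 2, 7-day replicate 3 and 14-day replicate 2, 8 of 9 members were above it, with median deviations of 0.11, 0.04, 0.27 and 0.20, and on the 2 later arrays Cdh5 was above by 0.45 and 0.39. On 14-day replicate 1 only 1 of 9 was above, and Cdh5 was at -0.36 and Cldn5 at -0.41. On 7-day replicate 2, 2 of 9 were above, Selp and Cldn5. Some deviations counted here were near 0, such as Selp at 0.00 and Pecam1 at 0.01 on 1-day replicate 2. The same counts over all genes were not made, so these counts describe the members only.

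The 19 other endothelial genes measured, among them Tek, Emcn, Erg and Icam2, differed between the late arrays in the same direction: their mean was 7.21 on 7-day replicate 3 against 6.93 on replicate 2, and 7.19 on 14-day replicate 2 against 6.95 on replicate 1. These arrays differed in several other marker lists too, though not in all. Between 7-day replicates 3 and 2 the means were 8.05 against 7.68 for mural, 8.17 against 7.82 for lymphatic, 7.30 against 6.77 for macrophage, 7.19 against 5.95 for neutrophil and 7.96 against 7.74 for epithelial genes. Between 14-day replicates 2 and 1 they were 8.08 against 7.82 for mural, 8.25 against 7.91 for lymphatic, 6.98 against 6.89 for macrophage, 5.28 against 5.72 for neutrophil and 8.07 against 7.82 for epithelial genes. Their part in the members' values was not tested. None of the 19 endothelial genes was called against control at any time (limma, median between -0.08 and 0.04). From immediately to 1 day 2 of the 19 rose, the endothelial receptor Robo4 by 0.37 ± 0.09 and Clec14a by 0.67 ± 0.18 (adjusted p of 0.0258 and 0.0348, limma), beside 8.39% of all genes called in either direction. Of 10 mural genes Notch3 rose in that step, by 0.28 ± 0.08.

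Counts over other junction and barrier genes were near those of the whole array. Of 18 tested junction partners, such as Tjp1, F11r and Esam, 0 were called against control, and of 10 barrier transporters 0 (limma), where at most 3.18% of all genes were called at any time. From immediately to 1 day 1 of 18 and 1 of 10 were called, beside 8.39% of all genes. Mfsd2a, the lipid transporter of barrier endothelium, fell by 0.46 ± 0.09 from immediately to 1 day (adjusted p = 0.00801, limma). It rose by 0.36 ± 0.09 from 1 to 7 days (adjusted p = 0.0207, limma), a step that called 9.35% of all genes. Cdh2, encoding N-cadherin, fell by 0.44 ± 0.09 in the first of these steps. Of 15 vascular growth factor genes 1 was called against control: Pgf, placental growth factor, fell by 0.48 ± 0.10 at 1 day (adjusted p = 0.0158, limma) and was 0.52 ± 0.10 higher at 7 days than at 1 day. The 1-day animals were all male and the controls all female, so sex and time cannot be told apart in that 1-day call. Vegfb fell by 0.24 ± 0.06 from immediately to 1 day, and Hif1a fell by 0.36 ± 0.08 from 1 to 7 days. Of 4 lymphatic genes Reln fell by 0.28 ± 0.06 immediately against control, where 0.931% of all genes were called. Prox1 fell by 0.70 ± 0.12 from immediately to 1 day, beside 8.39% of all genes, and both genes are also made outside lymphatics.

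On the leukocyte side, 1 of 10 tested partners of the adhesion molecules was called against control, at 1 day, beside 3.18% of all genes. Itgb2, the shared beta chain of the integrins that bind Icam1, rose by 1.11 ± 0.21 at 1 day (adjusted p = 0.0138) and fell by 1.19 ± 0.21 from 1 to 7 days. The other partners did not pass at 1 day, with Itgal at -0.09 ± 0.18, Itga4, a chain of the Vcam1 receptor, at -0.07 ± 0.17 and the selectin ligand Selplg at -0.01 ± 0.13. Cd44 fell by 0.46 ± 0.09 from 1 to 7 days, a step that called 9.35% of all genes. Of 15 cytokine and NF-kB pathway genes 1 was called against control, the monocyte chemokine Ccl2, up by 1.15 ± 0.28 at 1 day and down by 1.13 ± 0.28 from 1 to 7 days. The 1-day animals were all male and the controls all female. For the 1-day calls of Itgb2 and Ccl2, sex and time thus cannot be told apart from these groups alone. Over all genes, calls at 1 day fell from 434 to 75 with sex as a term. Of 12 other adhesion genes and 9 haemostasis genes 0 were called in any comparison (limma).

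Of 8 macrophage genes 2 were called at 1 day against control, beside 3.18% of all genes: Cd68 rose by 1.95 ± 0.20 and Aif1 by 1.33 ± 0.18. The other 6 did not pass against control, from Adgre1 at 0.13 ± 0.15 (adjusted p = 0.713) to Tyrobp at 0.58 ± 0.16 (adjusted p = 0.0619, limma). From immediately to 1 day 5 of the 8 rose (Cd68, Aif1, Csf1r, Mrc1 and Tyrobp), beside 8.39% of all genes called. From 1 to 7 days 3 of the 8 fell (Cd68, Aif1 and Tyrobp), beside 9.35%. The mean of the list was 6.68 to 6.99 in controls, 6.73 to 6.94 immediately, 7.47 to 7.58 at 1 day, 6.77 to 7.30 at 7 days and 6.80 to 6.98 at 14 days. For the 1-day calls of Cd68 and Aif1 too, all 1-day animals were male and all controls female. Macrophages can express Icam1 and Vcam1 too, and their part in the values of these genes was not tested.

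The expression pattern most like that of Vwf, the member with the largest F, was that of Stab1, a scavenger receptor of sinusoidal endothelium and macrophages (Pearson r = 0.86 and Spearman rho = 0.85 over the 15 arrays). Dync1h1 (r = 0.82, rho = 0.82) and Cpne2 (r = 0.80, rho = 0.75) followed. These 3 were picked as the highest of all genes tested, so the values describe likeness and carry no test. The group means of Stab1 were 6.36 ± 0.21 (SD, n = 3) in controls, 6.19 ± 0.08 immediately, 6.43 ± 0.17 at 1 day, 6.53 ± 0.23 at 7 days and 6.27 ± 0.27 at 14 days, with the lowest mean immediately after noise, as for Vwf.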

How the data were processed

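The deposited table holds log2 intensities of 45101 Affymetrix probe sets on 15 arrays, from 2.06 to 14.63. Affymetrix Expression Console, RMA and MAS5 are named in the submitters' processing notes, and the one that gave these values was not given in the sources used here. Labels' protocols state 50 ng of total RNA for each array. Array medians lay between 5.87 and 5.92, so the values were used as deposited. Dim sets compress change, and the number of arrays limits the precision.

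Probe sets were named from the platform annotation: 34945 had 1 gene, 932 several, 9160 none, and 64 were controls. A gene was its brightest single-gene set, and genes with a mean at or below 4.70 (lowest 25%) were left out. For single sets that level was 4.50. Group means were fitted over all 15 arrays with limma 3.58.1 in R 4.3.3 (eBayes with a mean-variance trend, 10 residual degrees of freedom), two-sided, with Benjamini-Hochberg adjustment within each comparison. The same fit on all probe sets above the filter gave the calls of single sets. Functions were tested on simulated data.

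The members, lists and tests were chosen with earlier results of these data known. Named genes were all members, the up to 2 largest called changes against control of each list whose arrays did not overlap the controls, and 3 genes most like the member with the largest F. Others named were chosen after their values were seen. Alternatives were sex as a term, other filters, the mean over sets, no trend, a robust prior, array weights, a replicate block, only the groups compared, quantile normalization and each array left out. Female arrays alone, and arrays left out at set level, were added after the data were seen. No 2 arrays shared over 3.67% of identical values.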

Additional observations from a re-analysis of the deposited data

Results flagged for a closer look

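The Vcam1 set 1451314_a_at differed between 2 times after noise: its change against control was -0.14 ± 0.11 (SE) immediately and 0.25 ± 0.11 at 1 day, and the test of that difference gave 0.40 ± 0.11 (adjusted p = 0.0416, limma over 26207 sets; higher on 3 of 3 one-day arrays than on all 3 immediate arrays). Over the fits with 1 array left out it ranged from 0.28 to 0.52, with adjusted p from 0.0212 to 0.163. With sex as a term the call was lost (adjusted p = 0.0877, limma), and all 1-day animals were male. The 2 other Vcam1 sets, at 0.18 and 0.16, did not pass in this step, which called 7.60% of all tested sets.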

How the results depend on the processing

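None of the 911 values of members against control computed under 26 alternatives passed the threshold (smallest adjusted p = 0.0965, limma). Where neither value passed, 69 of 1583 values over all 7 comparisons had the opposite sign to the reported one, all for reported sizes of at most 0.31. For the step from immediately to 1 day, the count of called members was 1 (Vwf) in place of 0 with the lowest 50% of genes left out, with array weights, in the fit to only the groups compared and after quantile normalization, and 0 to 1 with each array left out. For the step from 1 to 7 days that count was 0 to 1 (Icam1, without 7-day replicate 3), and for the F test 0 to 1 (Vwf, without 14-day replicate 2). The count of called probe sets from immediately to 1 day was 0 with sex as a term, 2 with the lowest 50% left out, and 0 to 2 with each array left out. From 1 to 7 days it was 0 to 1 with each array left out, where Icam1 passed without immediate replicate 3 or 7-day replicate 3 and the Ocln set 1440220_at without 14-day replicate 1. Whether the labels' replicate numbers pair the animals could not be settled from the values. Over 30 pairs of same-numbered arrays, deviations from group means correlated at -0.33 to 0.30, with 11 pairs over 0.1. The median was 0.06, beside -0.03 for pairs with different numbers. The replicate block gave 1 (that Ocln set) from 1 to 7 days and changed no other count of members. Genes called over the whole array fell from 434 to 75 at 1 day with sex as a term. With 3 arrays a group, intervals of Icam1 allow changes of up to 1.04 at 1 day, and Sele and the dim Selp and Cdh5 sets had too little signal to be tested.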
